A study of Homo sapiens with 12 samples.

Results

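The S100 calcium-binding proteins were followed through RNA-seq counts of MiaPaca2 cells. They were taken as a list of 9 genes, S100A2, S100A4, S100A6, S100A10, S100A11, S100A13, S100A14, S100A16 and S100P, found among the 63677 Ensembl identifiers of the count tables by their GENCODE v44 symbols. MiaPaca2 is a human line grown from a pancreatic ductal adenocarcinoma (PDAC). Each of the 4 groups had 3 libraries, and all cells were wild type and were collected after 24 h. Control cells received DMSO. CPT cells received calcipotriol (CPT), an analogue of Vitamin D, at 1 µM. GTA+5-Aza cells received glyceryl triacetate (GTA), which supplies acetate, at 2 mM and 5-Aza-2′-deoxycytidine (5-Aza), an inhibitor of DNA methyltransferases, at 1 µM. CPT+GTA+5-Aza cells received all 3 agents at these doses. Cells with GTA and 5-Aza are called primed below, and GTA and 5-Aza were not given separately, so their effects cannot be told apart. The study's methods call the samples of an experiment independent, whereas the labels name no separate cultures, so p-values measure the spread between these libraries, which may be partly technical.

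S100 proteins are small proteins with a pair of EF-hands, helix-loop-helix units that hold calcium. They mostly work as dimers, and on binding calcium most of them expose a surface that grips a partner, such as an annexin, a myosin chain, a cytoskeletal linker or p53. Some are also released from cells and act on receptors such as RAGE. Several members, S100P, S100A4, S100A6 and S100A2 among them, have long been studied as markers of pancreatic cancer. Most S100 genes lie together on the long arm of chromosome 1, in band 1q21, next to genes of the skin barrier.

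On GRCh38, 8 of the 9 members lie on the minus strand of chromosome 1. S100A10 (ENSG00000197747) spans chr1:151982915-151993859 and S100A11 (ENSG00000163191) chr1:152032506-152047907. The other members of the chromosome lie 1487 kb further on, within a stretch of 97 kb from S100A6 to S100A1. S100A6 (ENSG00000197956) spans chr1:153534599-153536244, S100A4 (ENSG00000196154) chr1:153543613-153550136 and S100A2 (ENSG00000196754) chr1:153561108-153567890. S100A16 (ENSG00000188643) at chr1:153606886-153613145, S100A14 (ENSG00000189334) at chr1:153614255-153616986 and S100A13 (ENSG00000189171) at chr1:153618787-153631360 follow. S100P (ENSG00000163993) lies alone on the plus strand at chr4:6693878-6697170.

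Promoter windows are shown for the member that changed most (S100A2), for the abundant member that passed the test (S100A6) and for the 2 abundant members that did not rise (S100A10 and S100A11), because 5-Aza acts on the methylation of cytosines in CG pairs. Each window holds 250 bases before and 50 after a RefSeq gene start (GRCh38.p14), read 5′ to 3′ on the minus strand, and capitals mark every CG pair. The windows are chr1:153563838-153564137 and chr1:153565795-153566094 for S100A2, chr1:153535942-153536241 for S100A6, chr1:151993810-151994109 for S100A10 and chr1:152036955-152037254 for S100A11.
S100A2, start 1: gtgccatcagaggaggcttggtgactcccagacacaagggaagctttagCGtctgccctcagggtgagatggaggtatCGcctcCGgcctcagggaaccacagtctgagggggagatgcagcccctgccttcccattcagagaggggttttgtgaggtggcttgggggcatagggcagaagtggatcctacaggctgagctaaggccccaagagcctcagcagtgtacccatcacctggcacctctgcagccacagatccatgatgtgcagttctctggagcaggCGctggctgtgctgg
S100A2, start 2: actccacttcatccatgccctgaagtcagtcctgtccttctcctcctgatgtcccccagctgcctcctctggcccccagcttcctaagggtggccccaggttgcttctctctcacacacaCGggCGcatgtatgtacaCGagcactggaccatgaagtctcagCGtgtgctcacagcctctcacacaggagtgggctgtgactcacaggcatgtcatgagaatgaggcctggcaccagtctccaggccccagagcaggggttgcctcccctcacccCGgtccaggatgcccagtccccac
S100A6: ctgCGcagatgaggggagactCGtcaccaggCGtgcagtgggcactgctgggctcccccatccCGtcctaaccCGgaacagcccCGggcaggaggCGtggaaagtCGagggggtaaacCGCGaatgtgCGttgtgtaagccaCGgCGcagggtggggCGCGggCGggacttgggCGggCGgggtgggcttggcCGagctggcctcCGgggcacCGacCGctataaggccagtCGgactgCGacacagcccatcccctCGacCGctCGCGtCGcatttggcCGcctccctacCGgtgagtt
S100A10: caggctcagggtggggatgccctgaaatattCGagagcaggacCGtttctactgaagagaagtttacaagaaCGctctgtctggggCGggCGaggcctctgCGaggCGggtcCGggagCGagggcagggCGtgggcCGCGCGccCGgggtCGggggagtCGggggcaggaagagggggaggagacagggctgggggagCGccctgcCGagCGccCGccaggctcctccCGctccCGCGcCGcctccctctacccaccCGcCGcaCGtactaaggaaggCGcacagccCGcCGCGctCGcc
S100A11: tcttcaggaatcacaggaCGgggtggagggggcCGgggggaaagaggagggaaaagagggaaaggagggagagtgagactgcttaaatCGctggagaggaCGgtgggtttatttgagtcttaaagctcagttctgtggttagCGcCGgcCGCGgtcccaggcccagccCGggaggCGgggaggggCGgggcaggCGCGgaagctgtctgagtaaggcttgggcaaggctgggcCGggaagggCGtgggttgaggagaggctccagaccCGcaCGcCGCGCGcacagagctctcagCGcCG

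All 9 members were found in the RefSeq promoter table, with 13 windows between them. Over all 35116 windows of the table the median was 14 CG pairs, with quartiles of 4 and 28. The windows of S100A2 held 4 and 5 CG pairs, so that 24.5% and 29.6% of all windows held fewer. S100A6 with 31, S100A10 with 32 and S100A11 with 22 lay above the median, and 79.3%, 81.1% and 62.3% of all windows held fewer. S100A4, also an abundant member, lay below the median with 8, and 39.3% of all windows held fewer. The windows of the remaining members held 3 to 19 CG pairs. Methylation itself was not measured in these libraries.

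**Figure D1:**
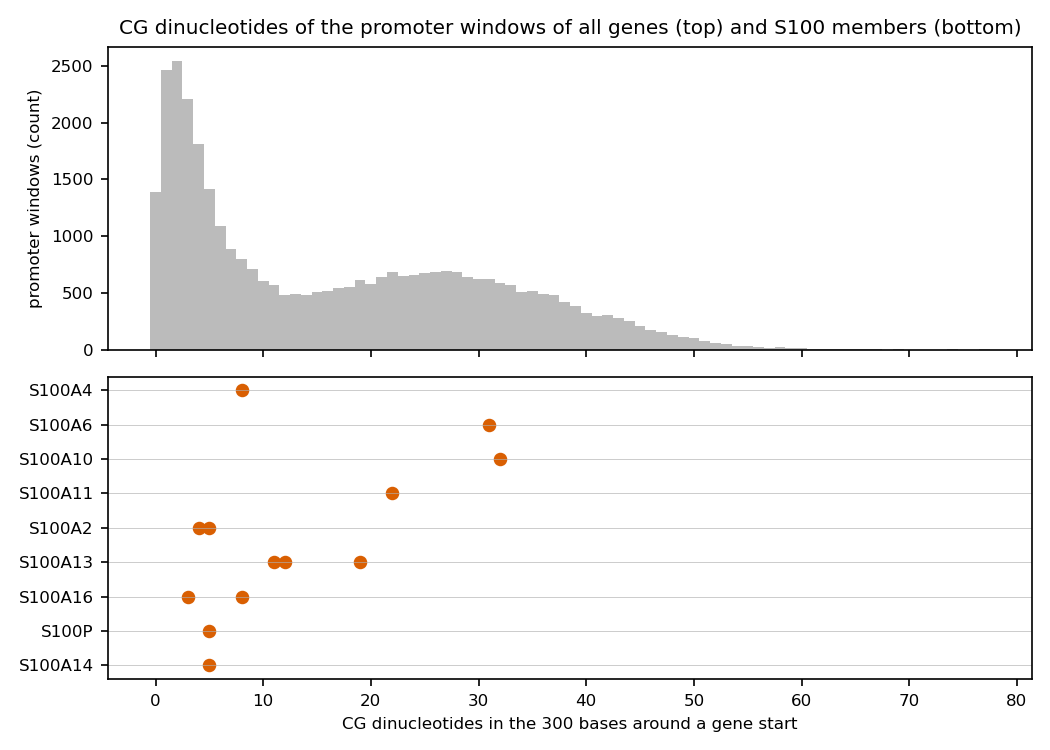
The top panel counts promoter windows of all genes by their number of CG dinucleotides in 300 bases, and the bottom panel places the 13 windows of the 9 S100 members on the same axis. S100A6, S100A10 and S100A11 sit at 22 to 32 CG pairs, and S100A4, also abundant, at 8. The windows of S100A13 sit at 11 to 19 and those of S100A2, S100A14, S100A16 and S100P at 3 to 8.

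Short motifs were searched on both strands of the same windows. TATAAA, the TATA box, occurred in 11.5% of all windows and in those of S100A4, S100P and 1 of the 3 of S100A13. GGGCGG, a GC box, occurred in 45.0% of all windows, 3 times in that of S100A6 and once each in those of S100A10 and S100A11, in 1 of S100A13 and in 1 of S100A16. TGANTCA, the AP-1 motif, occurred in 7.71% of all windows and in the window at start 2 of S100A2. Elements bound by the Vitamin D receptor are built from hexamers, and 3 of these were searched. GGGTCA occurred in 14.1% of all windows, in both of S100A16, in that of S100A14 and in 2 overlapping windows of S100A13. The hexamer AGGTCA occurred in 13.8% of all windows and, among the members, in that of S100A4. For GGTTCA the share was 8.62% of all windows, and 0 of the 13 held it. These are matches of letters and not measured binding sites.

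The libraries held 16162490 to 21224665 counts. Levels are given as CPM, counts scaled to a common library size with TMM factors. After edgeR's filter for low counts 17123 genes were tested, 7 of them members, and S100A14 and S100P were not among them. Among the cell type markers, the keratins KRT8 and KRT18 averaged 1540 and 732 CPM in Control and vimentin (VIM) 6202 CPM, whereas the epithelial genes EPCAM and CDH1 had at most 4 counts in a library. Acinar and islet markers were at 0 in all 12 libraries, and the 4 leukocyte markers summed to at most 0.778 CPM. Some marker levels differed between primed and unprimed libraries. The mean of VIM was 5438 CPM in GTA+5-Aza, below that in Control, and 6325 and 5584 CPM in CPT and CPT+GTA+5-Aza. The 4 mesenchymal markers summed to 5365 to 5786 CPM in primed and 6124 to 6663 CPM in unprimed libraries. VIM made up nearly all of this sum. ZEB1 was also lower in primed cells, at 60.08 and 51.71 CPM in Control and GTA+5-Aza. It averaged 58.43 and 52.3 CPM in CPT and CPT+GTA+5-Aza. FN1 did not follow, at 2.955 and 2.933 CPM in Control and GTA+5-Aza and 2.979 and 3.001 CPM in CPT and CPT+GTA+5-Aza. CDH2 averaged 0 CPM in Control and CPT and at most 0.08347 CPM in a primed group. KRT7 averaged 0.389 CPM in Control and 2.02 CPM in GTA+5-Aza. Of the 4 fibroblast markers, ACTA2 averaged at most 0.664 CPM in a group and DCN at most 0.0499 CPM. COL1A1 averaged 0.135 and 1.70 CPM in Control and GTA+5-Aza, and COL1A2 809.8 and 896.6 CPM. In CPT and CPT+GTA+5-Aza, COL1A2 averaged 728.9 and 829.0 CPM. The part of these shifts in the results for S100 genes was not tested. Some libraries stood apart within their group. Control replicate 1 was the lowest of its group for 7 of the 7 tested members. CPT replicate 3 was the lowest of its group for 6 of 7, and CPT replicate 2 was the highest for 5 of 7. The deviation of a library from its group mean was correlated with the GC content of the genes (6164 genes, which are not independent replicates), from -0.66 in GTA+5-Aza replicate 2 to 0.71 in GTA+5-Aza replicate 3. It was -0.41 in Control replicate 1, 0.65 in CPT replicate 2 and -0.50 in CPT replicate 3. The part of GC content in the values of the members was tested only by removing a GC trend from each library. That trend was taken against each gene's mean over all libraries of the fit, not over its group. GC trends that differ between groups were therefore removed as well. Values without single libraries are given beside the priming results that moved most with them.

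The members fell into 3 tiers. On a scale of CPM per kb of exonic length, the Control levels were 485.2 ± 32.8 for S100A11, 462.8 ± 37.6 for S100A4 and 420.9 ± 61.2 for S100A6 (SD, n = 3), and the ranges of neighbours in this order overlapped. S100A10 followed at 286.7 ± 19.9 CPM per kb, below every library of the first 3. S100A13, at 3.90 ± 0.50 CPM per kb, was the highest of the scarce members, and S100A2 at 1.74 ± 0.33 and S100A16 at 1.69 ± 0.34 could not be ordered beyond their spread. S100P was at a mean of 0.183 CPM per kb and S100A14 had no count in Control. The 4 abundant genes took at least 98.3% of the counts of the members in every library, and the 9 genes together took 0.123% to 0.165% of all counts.

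**Figure D2:**
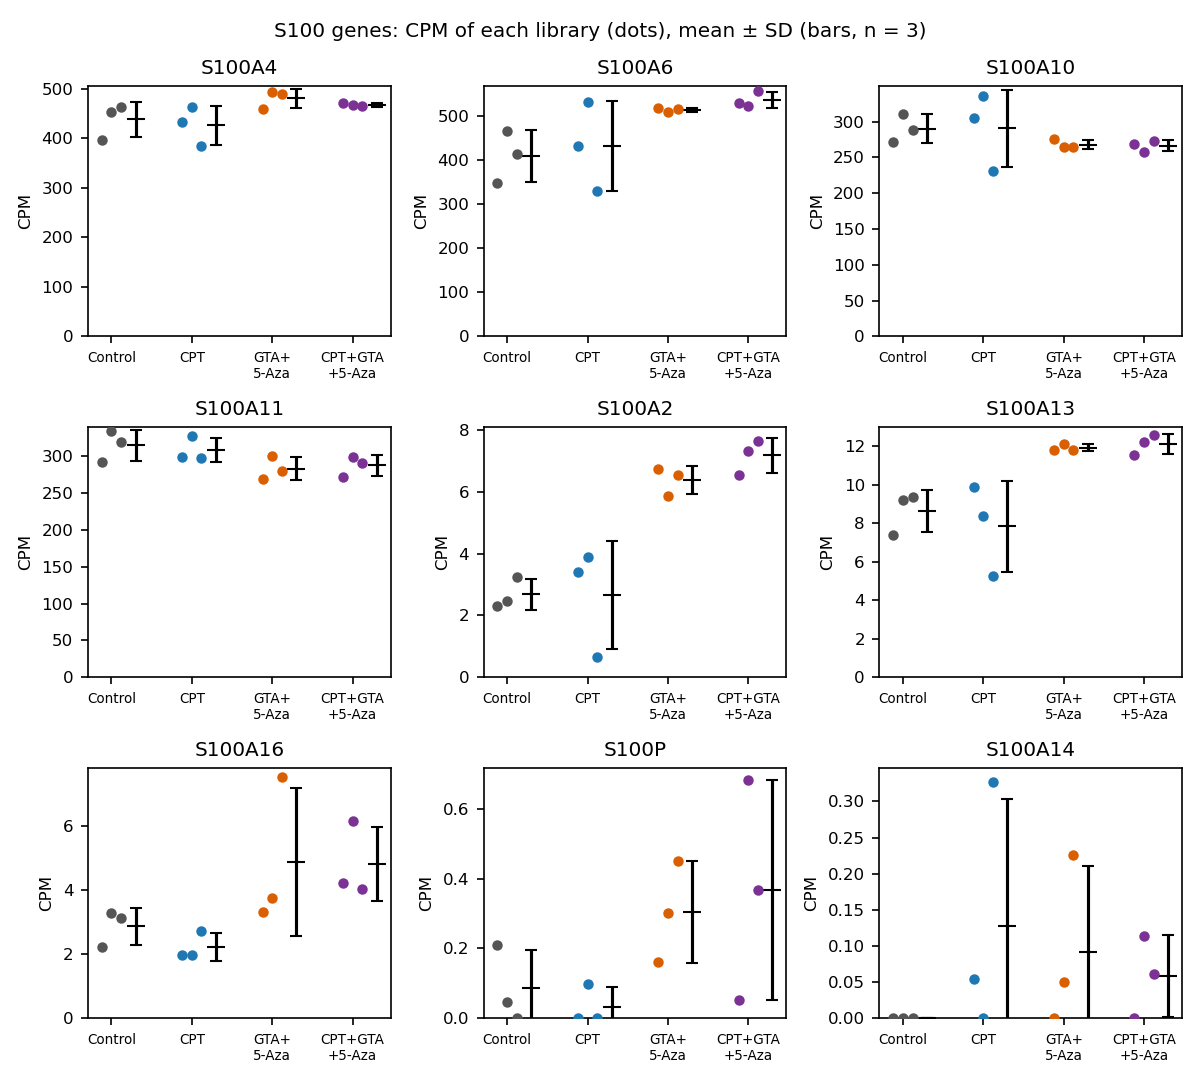
Each panel plots the CPM of 1 S100 gene (linear axis from 0) in the 12 libraries by group, with the mean ± SD of 3 libraries as a bar beside the dots. S100A2 lies between 5.86 and 7.65 CPM in the 6 primed libraries and at or below 3.89 CPM in the 6 unprimed ones. Among the tested members, the CPT group had the largest SD of all groups for S100A2, S100A4, S100A6, S100A10 and S100A13.

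The effect of priming was examined in cells without CPT (GTA+5-Aza against Control) and with CPT (CPT+GTA+5-Aza against CPT), and no library was in both comparisons. S100A2 was higher in primed cells in both comparisons, 2.37-fold and 2.69-fold, and S100A6 was 1.26-fold and 1.24-fold higher. S100A16 and S100A13 passed the test in the presence of CPT, at 2.16-fold and 1.54-fold, and S100A4, S100A10 and S100A11 did not pass in either comparison. Without CPT, 2 of the 7 tested members were called higher and 0 lower by edgeR's quasi-likelihood test (Benjamini-Hochberg adjusted p under 0.05 over all genes), where 9.95% of all tested genes were called higher and 7.53% lower. With CPT, 4 of 7 were called higher and 0 lower, where 9.57% of all tested genes were called higher and 7.39% lower. The median log2 fold change of the 7 was 0.33 without and 0.31 with CPT, beside 0.0069 and 0.0055 over all tested genes. With each library's GC trend removed, the counts became 1 higher and 1 lower without CPT and 3 higher and 1 lower with CPT, since S100A6 was no longer called and S100A11 was called lower. Over all 17123 genes, 3277 and 3406 were then called in either direction, against 2993 and 2904 with the trend kept. In bulk RNA, fewer cells with a transcript and less of it per cell cannot be told apart.

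S100A2, a mainly nuclear member known to bind p53, changed most. It stood at 2.31, 2.48 and 3.26 CPM in Control and at 6.73, 5.86 and 6.55 CPM in GTA+5-Aza. It stood at 3.41, 3.89 and 0.655 CPM with CPT, the last from 12 counts in CPT replicate 3, and at 6.55, 7.32 and 7.65 CPM in CPT+GTA+5-Aza. Every primed library was above every unprimed one. The log2 fold change was 1.25 ± 0.32 (SE) without CPT (adjusted p = 0.00763, edgeR) and 1.43 ± 0.32 with CPT (adjusted p = 0.00275). Without CPT replicate 3, the latter was 0.97 with an adjusted p of 0.0047, and without CPT replicate 2 it was 1.81 (adjusted p = 0.000122). Of 18 alternatives, 17 kept the call in each comparison. The exception was glmTreat, which tests against a fold change of 1.5 in place of none, with adjusted p = 0.274 and 0.103.

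S100A6, also called calcyclin, binds annexins and the calcyclin-binding protein CACYBP. Its levels were 347, 466 and 413 CPM in Control and 516, 509 and 516 CPM in GTA+5-Aza. They were 432, 532 and 329 CPM with CPT and 528, 521 and 556 CPM in CPT+GTA+5-Aza. The groups without CPT did not overlap, and those with CPT did, through CPT replicate 2. The log2 fold change was 0.33 ± 0.10 (SE) without CPT (adjusted p = 0.0263, edgeR) and 0.31 ± 0.10 with CPT (adjusted p = 0.0369). These calls were fragile, and 11 and 9 of 18 alternatives kept them. With each library's GC trend removed, the log2 fold changes were 0.19 and 0.18 and the adjusted p 0.0812 and 0.0825. Without Control replicate 1, the first was 0.22 (adjusted p = 0.203), and without CPT replicate 3, the second was 0.15 (adjusted p = 0.239). Without CPT replicate 2 the second was 0.49 (adjusted p = 2.33e-05). The first call was also lost without Control replicate 3 or GTA+5-Aza replicate 1 or 3 (adjusted p = 0.0714 to 0.0766), and the second without CPT replicate 1 or any CPT+GTA+5-Aza library (adjusted p = 0.0713 to 0.13). DESeq2 gave adjusted p = 0.162 and 0.192.

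S100A16 and S100A13 are scarce members of the same cluster. S100A16 stood at 2.21, 3.29 and 3.11 CPM in Control, 1.98, 1.97 and 2.73 CPM in CPT, 3.31, 3.76 and 7.51 CPM in GTA+5-Aza and 4.23, 6.13 and 4.04 CPM in CPT+GTA+5-Aza. No primed library was below an unprimed one of the same comparison, and GTA+5-Aza replicate 3 was the highest of all. The log2 fold change was 1.11 ± 0.30 with CPT (adjusted p = 0.0118, edgeR) and 0.75 ± 0.29 without (adjusted p = 0.0806), and the former call was lost without CPT replicate 1 (adjusted p = 0.0525) or without CPT+GTA+5-Aza replicate 2 (adjusted p = 0.091). The latter value was 0.96 without GTA+5-Aza replicate 1 (adjusted p = 0.0424) and 0.30 without GTA+5-Aza replicate 3 (adjusted p = 0.612), and 0.59 without Control replicate 1 (adjusted p = 0.273).

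S100A13 takes part in the release of FGF1 and interleukin-1α, which leave the cell without a signal peptide. It stood at 7.36, 9.20 and 9.34 CPM in Control and 11.8, 12.1 and 11.8 CPM in GTA+5-Aza. It stood at 9.90, 8.36 and 5.24 CPM in CPT and 11.5, 12.2 and 12.6 CPM in CPT+GTA+5-Aza, so that every primed library was above every unprimed one. The log2 fold change was 0.62 ± 0.18 with CPT (adjusted p = 0.0156, edgeR) and 0.46 ± 0.18 without (adjusted p = 0.0708). Without CPT replicate 3, the former was 0.40 with an adjusted p of 0.112, and without CPT+GTA+5-Aza replicate 3 it was 0.60 with an adjusted p of 0.0555. Without Control replicate 1, the latter was 0.36 with an adjusted p of 0.266. The exons of S100A13 share 235 bases, 10.6% of their length, with those of S100A1 on the other strand and 536 bases (24.2%) with a long noncoding gene (ENSG00000271853) on the same strand. The strand setting of the counting is not given in the sources used here, so the split of reads between these genes is uncertain.

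Neither S100A13 nor S100A16 was shown to differ in its response between cells without and with CPT. The difference of both priming effects is the interaction of CPT and priming, with a log2 value of 0.16 (95% interval -0.35 to 0.68) for S100A13 and 0.36 (-0.51 to 1.23) for S100A16, both with an adjusted p of 1.0 (edgeR). In this test 0 of 7 members had an unadjusted P under 0.05, DESeq2 called 0 as well, and 0.0% of all genes were called.

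S100A4, which binds non-muscle myosin and is linked to cell motility, moved little. It stood at 397, 453 and 464 CPM in Control, 432, 462 and 384 CPM in CPT, 458, 494 and 489 CPM in GTA+5-Aza and 472, 466 and 465 CPM in CPT+GTA+5-Aza. Its log2 fold change was 0.13 in both priming comparisons, with 95% intervals of 0.0035 to 0.26 and 0.0037 to 0.26 (adjusted p = 0.157 in both, edgeR). Without CPT replicate 2 the value with CPT was 0.19 (adjusted p = 0.02), and without CPT replicate 3 it was 0.06 (adjusted p = 0.585). The value without CPT was 0.06 without Control replicate 1 (adjusted p = 0.62). With the GC trend removed the values were 0.05 without CPT and 0.06 with CPT (adjusted p = 0.549 and 0.477).

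S100A10 and S100A11 had fold changes below 1. S100A10, or p11, holds its active shape without calcium and joins annexin A2 at the plasma membrane, where the pair binds plasminogen and its activator. S100A10 stood at 271, 311 and 288 CPM in Control, 305, 336 and 231 CPM in CPT, 275, 264 and 264 CPM in GTA+5-Aza and 268, 258 and 273 CPM in CPT+GTA+5-Aza. The groups overlapped in both comparisons, and the log2 fold changes were -0.11 without CPT and -0.13 with CPT (adjusted p = 0.393 and 0.347, edgeR). Without CPT replicate 3 the latter was -0.27 (adjusted p = 0.00301), and without CPT replicate 2 it was -0.015 (adjusted p = 0.921). The former was -0.06 without Control replicate 2 (adjusted p = 0.727). S100A11, a partner of annexin A1, stood at 292, 334 and 319 CPM in Control, 299, 327 and 298 CPM in CPT, 269, 300 and 280 CPM in GTA+5-Aza and 272, 299 and 291 CPM in CPT+GTA+5-Aza. Its groups overlapped too, and the log2 fold changes were -0.15 and -0.10 (adjusted p = 0.0866 and 0.301). With the GC trend removed they were -0.21 and -0.15, both past the threshold (adjusted p = 0.00391 and 0.0329). The former also passed with a trend in gene length removed (-0.19, adjusted p = 0.0344), without Control replicate 1 (-0.21, adjusted p = 0.0412) or without GTA+5-Aza replicate 2 (-0.20, adjusted p = 0.0467). Without CPT replicate 2 the latter was -0.06 (adjusted p = 0.548).

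**Figure D3:**
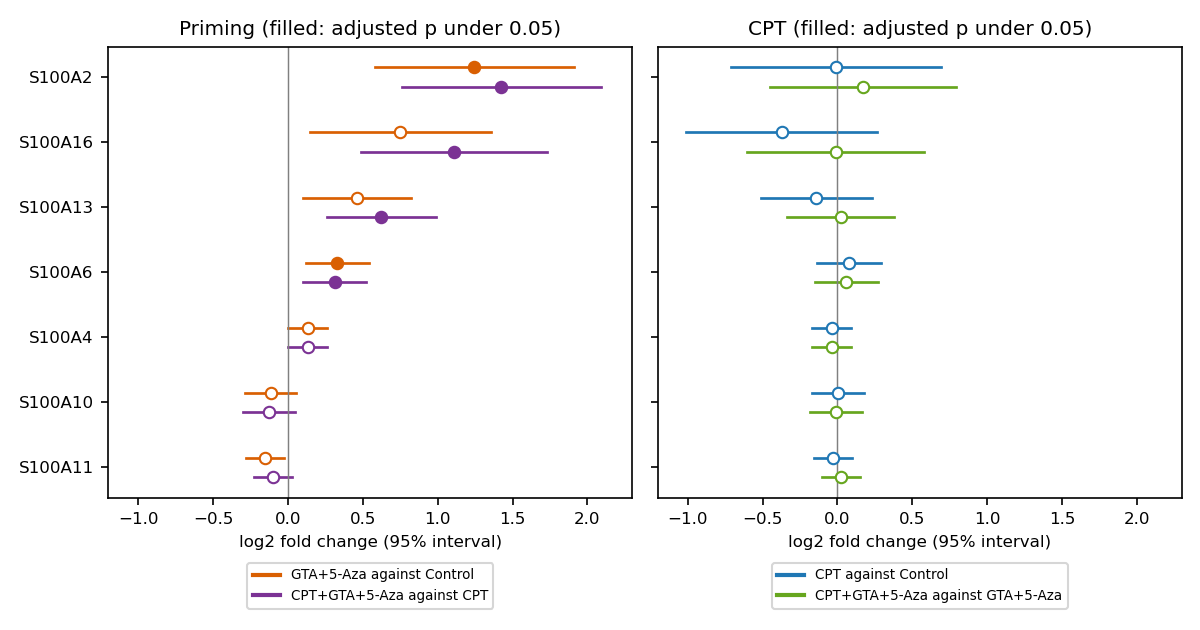
Log2 fold changes with 95% intervals (edgeR) of the 7 tested S100 members for priming on the left, without and with CPT, and for CPT on the right, in unprimed and primed cells. Filled points had an adjusted p under 0.05. S100A2 and S100A6 are filled in both priming comparisons, S100A16 and S100A13 in the one with CPT, and all points on the right are open with intervals that span 0.

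The study's methods call genes by a change of more than 1.5-fold and P under 0.05, without saying whether P was adjusted or tested against 1.5-fold. Read as a bare fold and an unadjusted P, S100A2 and S100A16 were upregulated without CPT, and S100A2, S100A16 and S100A13 with CPT. This reading called 6.82% and 6.93% of all genes higher. Read as a test against 1.5-fold (glmTreat) with an unadjusted P, S100A2 passed in both comparisons and S100A16 with CPT, whereas S100A16 without CPT and S100A13 with CPT did not pass. The share of all genes that passed this reading is not given here. In CPT+GTA+5-Aza against Control, which shares libraries with other comparisons, 2 of 7 members were called higher, S100A2 with a log2 fold change of 1.41 (adjusted p = 0.00275, edgeR) and S100A6 with 0.39 (adjusted p = 0.00913). There, 9.62% of all genes were called higher and 7.16% lower.

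The mean of both priming effects sets 6 primed against 6 unprimed libraries, a comparison added after the values had been seen. In it, S100A2 (log2 fold change 1.34), S100A16 (0.93), S100A13 (0.54), S100A6 (0.32) and S100A4 (0.13) were called higher and S100A11 (-0.13) lower, with adjusted p of 5.53e-05, 0.00124, 0.0014, 0.00123, 0.0236 and 0.027 (edgeR). So 5 of 7 members were called higher and 6 of 7 in either direction, where 16.8% of all genes were called higher and 30.9% in either direction. S100A10 had a log2 fold change of -0.12 (adjusted p = 0.129), which was -0.19 without CPT replicate 3 (adjusted p = 0.000545). The calls of S100A16, S100A13 and S100A6 were kept in 22 of 23 alternatives and that of S100A2 in 23, whereas S100A4 and S100A11 kept theirs in 16. S100A4 had a log2 fold change of 0.05 with the GC trend removed (adjusted p = 0.262), and its adjusted p was 0.0506 to 0.116 without Control replicate 1, CPT replicate 3, GTA+5-Aza replicate 2 or CPT+GTA+5-Aza replicate 1. For S100A11 the adjusted p was 0.0533 to 0.0946 without Control replicate 2 or 3, GTA+5-Aza replicate 1 or 3, or CPT+GTA+5-Aza replicate 1. Removal of the GC trend gave S100A6 a log2 fold change of 0.19 in this comparison (adjusted p = 0.00698). Without CPT replicate 3 the values were 1.10 for S100A2, 1.01 for S100A16, 0.43 for S100A13 and 0.24 for S100A6.

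S100P and S100A14 were at the limit of detection. S100P, a member studied in PDAC that binds ezrin and RAGE, had 4, 1 and 0 counts in Control, 0, 2 and 0 in CPT, 3, 6 and 8 in GTA+5-Aza and 1, 12 and 6 in CPT+GTA+5-Aza. The 6 primed libraries held 36 counts and the 6 unprimed ones 7, with means of 0.336 and 0.0594 CPM, and the values overlapped. An exact permutation test of the CPM within cells without and with CPT, two-sided, gave p = 0.02, where 0.005 was the smallest p it could give, and this was 1 of 2 such tests. In edgeR with no filter on low counts, over 32000 genes, the adjusted p of the mean priming effect was 0.0549. S100A14 had 0 counts in all Control libraries, 1, 0 and 6 in CPT, 0, 1 and 4 in GTA+5-Aza and 0, 2 and 1 in CPT+GTA+5-Aza. Its exact permutation test gave p = 0.78. A count of 0 allows up to 3 counts in a library, and this limit covers counting error only.

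The effect of CPT alone was then examined, in unprimed cells (CPT against Control) and in primed cells (CPT+GTA+5-Aza against GTA+5-Aza). In both, edgeR called 0 of the 7 tested members and 0.0% of all genes, 0 members had an unadjusted P under 0.05, and DESeq2 called 0 members. The log2 fold changes ran from -0.37 (S100A16) to 0.08 (S100A6) in unprimed cells and from -0.04 (S100A4) to 0.17 (S100A2) in primed cells. The 95% intervals set how large a change could have been present. For S100A4 they were -0.17 to 0.09 in both settings, and for S100A11 -0.16 to 0.10 and -0.10 to 0.15. The interval of S100A2 in unprimed cells, from -0.71 to 0.69, was wide, and its log2 fold change was 0.44 without CPT replicate 3. Averaged over unprimed and primed cells, 0 members were called or had an unadjusted P under 0.05, by DESeq2 also 0, and the log2 fold changes lay between -0.19 and 0.08. There, 0.00584% of all genes were called.

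Over the 12 libraries, the log2 CPM of S100A2 had a Pearson correlation of 0.96 with that of S100A13, 0.89 with S100A6 and 0.84 with S100A4. S100A4 and S100A6 were correlated at 0.88. S100A10 and S100A11 had 0.57 with each other and -0.39 to 0.31 with S100A2, S100A4, S100A6 and S100A13. S100A16 had 0.49 to 0.60 with S100A2, S100A4, S100A6 and S100A13, -0.47 with S100A10 and -0.40 with S100A11. The tested genes most like S100A2 by this measure were FUOM (0.97), S100A13 and DOC2A (0.96), and those most like S100A6 were TMSB10 (0.98), which encodes the actin-binding thymosin β10, CD99 (0.98) and FAM166A (0.97). These are descriptions over libraries that share treatment and GC trends.

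Of 12 further S100 genes, 3 passed the filter. S100A3 stood at 0.158, 0.905 and 1.65 CPM in Control, 2.03, 2.45 and 3.11 in GTA+5-Aza, 1.87, 1.13 and 0.546 in CPT and 1.43, 1.70 and 1.90 CPM in CPT+GTA+5-Aza. It was called higher without CPT (log2 fold change 1.46, adjusted p = 0.0454, edgeR) and not with CPT (0.50, adjusted p = 0.571). S100A5 stood at 0.999, 0.810 and 1.12 CPM in Control, 1.12, 1.25 and 1.75 in GTA+5-Aza, 0.935, 1.48 and 0.382 in CPT and 2.11, 2.61 and 2.39 in CPT+GTA+5-Aza. It was called higher with CPT (1.33, adjusted p = 0.0368) and not without (0.49, adjusted p = 0.516). Neither gene was shown to respond differently without and with CPT, since the interaction was -0.96 for S100A3 (95% interval -2.44 to 0.51) and 0.84 for S100A5 (-0.45 to 2.13), both with an adjusted p of 1.0. S100A1, a member known from heart muscle, was not called, with log2 fold changes of 0.43 and -0.26. The psoriasin genes S100A7, S100A7A and S100A7L2 and the calgranulin genes S100A8 and S100A12 were at 0 in all 12 libraries, which allows up to 3 counts in each, and S100A9, S100B, S100G and S100Z had 4 to 12 counts in all.

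Of the 8 tested S100 genes in the 97 kb from S100A6 to S100A1, 3 were called higher without CPT and 5 with CPT, where 9.95% and 9.57% of all genes were called higher, and 0 were called lower. In the mean of both priming effects, 7 of the 8 were called higher, all but S100A1, beside 16.8% of all genes. S100A11, 1487 kb away, and S100A10, further off, had negative log2 fold changes. The stretch of 97 kb was set apart after the values had been seen. Within 250 kb around the S100A genes, 19 tested genes were not S100 genes. Without CPT, 1 of them was called higher and 1 lower, and the median of their log2 fold changes was -0.15. These shares were below the 9.95% and 7.53% of all genes. With CPT 3 were called higher and 3 lower, beside 9.57% and 7.39% of all genes, and the median was 0.04. ILF2, an RNA-binding subunit, fell in primed cells without CPT from 306.9 to 252.2 CPM (log2 fold change -0.28, adjusted p = 0.000798, edgeR). The gene called higher was a long noncoding gene (ENSG00000238279) that shares 37 exonic bases with S100A6 on the other strand. It rose from 1.31 to 2.94 CPM (log2 fold change 1.17, adjusted p = 0.02), and its reads and those of S100A6 cannot be told apart in the shared bases. Of the 7 fused-type S100 genes, barrier genes such as filaggrin and trichohyalin, only TCHH was tested, and it was not called without CPT (-0.23, adjusted p = 0.855) or with CPT (1.03, adjusted p = 0.326).

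**Figure D4:**
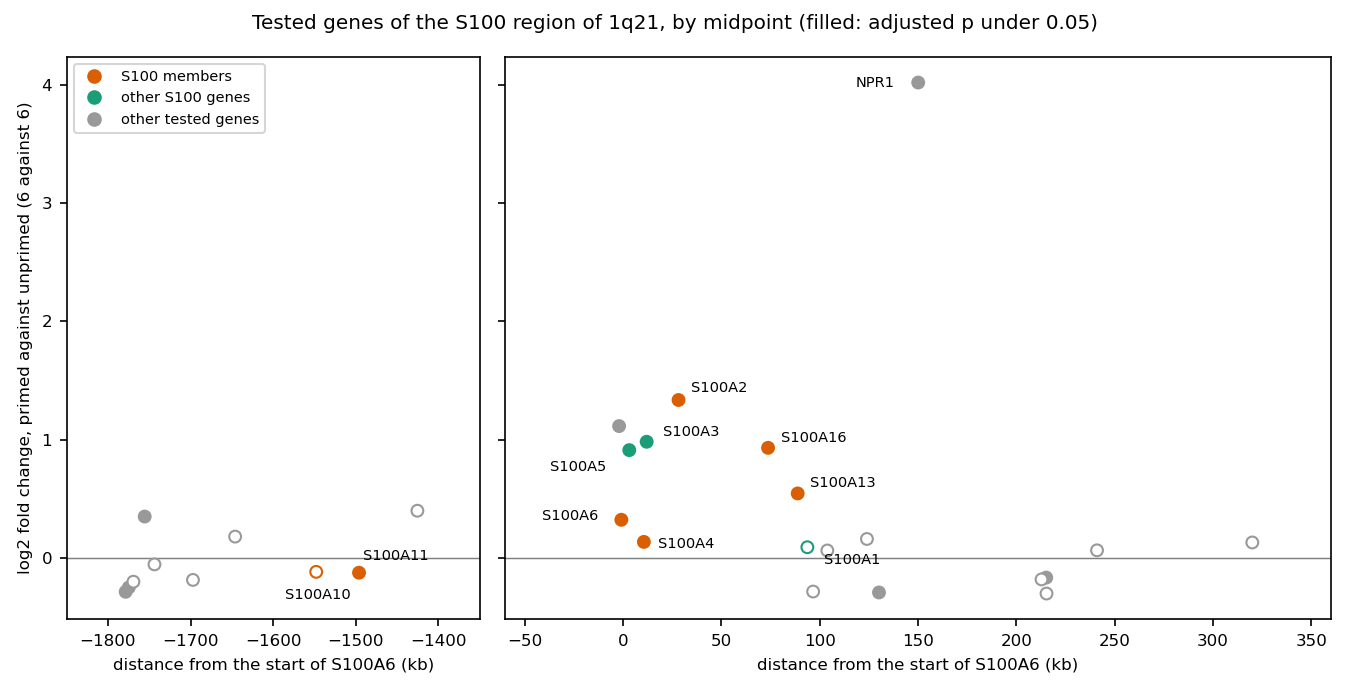
Log2 fold change of 6 primed against 6 unprimed libraries for the tested genes of the S100 region of 1q21, by the distance of the gene's midpoint from the start of S100A6 in kb, in 2 stretches. Filled points had an adjusted p under 0.05. S100A2, S100A16, S100A13, S100A6, S100A4, S100A3 and S100A5 lie above 0 in the right panel, and S100A10 and S100A11 lie just below 0 in the left panel. NPR1, at 4.02, is a scarce gene with 0.259 CPM in Control.

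Partners and receptors of S100 proteins moved in both directions. Of 26 listed, 21 were tested, and 4 were called higher and 5 lower without CPT and 5 higher and 6 lower with CPT. Of all genes, 9.95% were called higher and 7.53% lower without CPT, and 9.57% and 7.39% with CPT. The median log2 fold changes of the partners were -0.01 and 0.03. Annexin A1 (ANXA1), bound by S100A11, fell from 1405 to 1100 CPM without CPT (log2 fold change -0.35, adjusted p = 3.24e-05, edgeR). Annexin A2 (ANXA2), bound by S100A10, fell from 882.6 to 761.8 CPM (-0.21, adjusted p = 0.0024). CACYBP, bound by S100A6, had a log2 fold change of -0.18 (adjusted p = 0.0465), the myosin gene MYH9, whose product S100A4 binds, -0.22 (adjusted p = 0.00277) and the scaffold gene IQGAP1 -0.25 (adjusted p = 0.00212). All 5 were also called lower with CPT, together with SYT1 (-0.28, adjusted p = 0.0364), which encodes a synaptotagmin found in the FGF1 release complex.

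Annexin A6 (ANXA6), another membrane-binding annexin, rose from 140.0 to 193.2 CPM without CPT (log2 fold change 0.46, adjusted p = 8.5e-06, edgeR). PLAT, the tissue plasminogen activator, which S100A10 and annexin A2 gather at the cell surface, rose from 1.19 to 3.11 CPM (1.39, adjusted p = 0.0103). DLC1, whose product S100A10 binds, rose from 10.2 to 15.3 CPM (0.58, adjusted p = 0.0115). These 3 were called with CPT as well. ERBB2 was called without CPT (0.21, adjusted p = 0.0475), and ANXA5 (0.28, adjusted p = 0.0206) and FGF1 (1.39, adjusted p = 0.0296), a cargo of S100A13, with CPT.

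**Figure D5:**
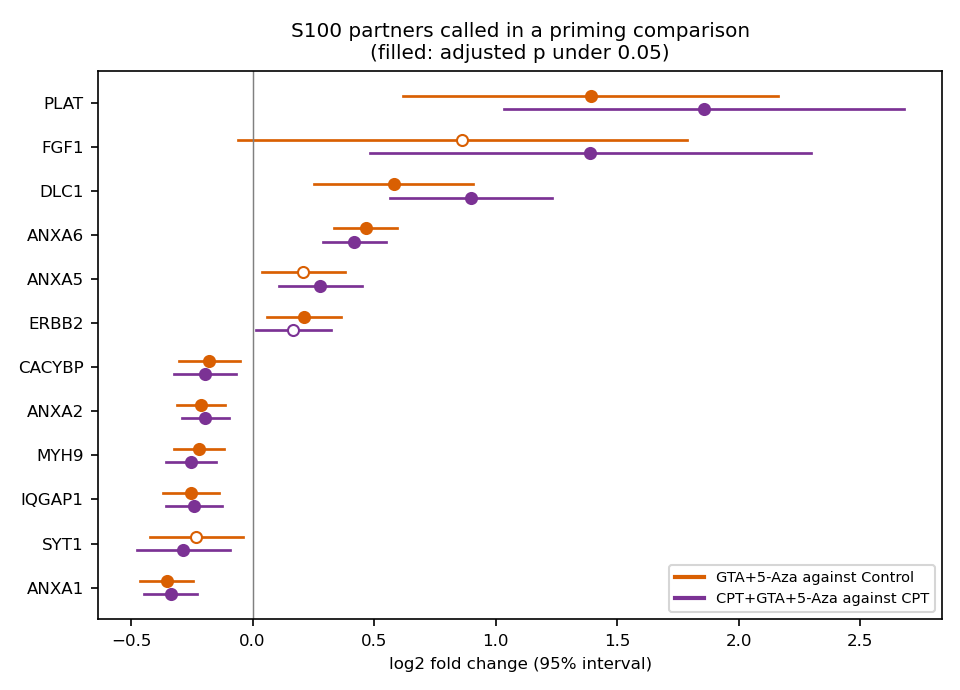
Log2 fold changes with 95% intervals (edgeR) of the 12 S100 partners called in at least 1 priming comparison, without and with CPT. Filled points had an adjusted p under 0.05. PLAT, FGF1, DLC1, ANXA6, ANXA5 and ERBB2 lie above 0, and CACYBP, ANXA2, MYH9, IQGAP1, SYT1 and ANXA1 lie below 0.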

How the data were processed

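RNA-seq of 12 MiaPaca2 libraries was used, 3 per group, with groups and replicate numbers from the labels. The authors trimmed reads with trim galore, aligned them with hisat2 2.2.1 to GRCh38 and counted them per gene with HTSeq. The deposited files hold raw gene counts, one table per library. Rows that name no gene summed to 0 counts, which would also hold if such rows were absent. The numbers of unassigned or ambiguous reads are therefore not known here. The annotation release and strand setting are not given in the sources used here. GENCODE v44 (GRCh38) supplied symbols, exonic lengths and coordinates, and holds 99.047% of the counts. RefSeq (GRCh38.p14) supplied promoters.

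Tests were run with edgeR 4.0.16 under R 4.3.3 (filterByExpr on the 4 groups, TMM scaling, glmQLFit and glmQLFTest in 1 fit of 12 libraries), with Benjamini-Hochberg adjustment over all 17123 genes tested. Alternatives were DESeq2 1.42.0, the likelihood ratio test, glmTreat, other scalings and filters, the replicate number as a block, removal of GC or length trends, only the groups compared, and leaving out each library. Replicate pairs of a group differed beyond sampling noise, with chi-square values of 3.88 to 16.6 per degree of freedom over genes.

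Named were all members, the other S100 genes that passed the filter, partners called in a priming comparison, neighbours within 250 kb called without CPT, and the 3 genes most correlated with each member called there. The members and lists were chosen with earlier results of these data known. Protein sequences were not analysed here.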

Additional observations from a re-analysis of the deposited data

How the results depend on the processing

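S100A2 was called higher in primed cells without CPT and with CPT under all alternatives run but glmTreat, and in the mean of both effects under all of them. Counts of called members moved mainly with DESeq2, glmTreat and single libraries. Without CPT the 2 called members became 1 with DESeq2 and 0 with glmTreat, and 1 to 4 when a library was left out (1 without Control replicate 3 or GTA+5-Aza replicate 3, 4 without CPT replicate 2). Over all genes, the 2993 calls of 17123 became 3299 with DESeq2 and 216 with glmTreat. They became 1983 of 17704 without Control replicate 3, 1907 of 17735 without GTA+5-Aza replicate 3 and 3648 of 17679 without CPT replicate 2. With CPT the 4 became 0 with glmTreat and 2 to 5 when a library was left out (2 without CPT replicate 1, CPT+GTA+5-Aza replicate 2 or CPT+GTA+5-Aza replicate 3). Over all genes, the 2904 calls of 17123 became 216 with glmTreat and 2012 of 17740 without CPT replicate 1. Without CPT+GTA+5-Aza replicates 2 and 3 they became 1936 of 17725 and 1985 of 17705. The 5 members were called without CPT replicate 2, with 3765 of 17679 genes called. In CPT+GTA+5-Aza against Control the 2 became 1 with DESeq2, 0 with glmTreat, 5 with only the groups compared, and 1 to 3 when a library was left out (1 without Control replicate 1). In the mean priming effect the 6 became 1 with glmTreat. For CPT+GTA+5-Aza against Control and the mean priming effect, the numbers of all genes called under these alternatives are not given here. The comparisons of CPT and the interaction gave 0 members under every alternative run. Removal of the GC trend left the counts at 2 without CPT and 4 with CPT but replaced S100A6, higher, by S100A11, lower. With the trend removed, 3277 and 3406 of 17123 genes were called. The causes were not tested beyond the GC and length trends.

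With the replicate number as a block, no count of called members changed. The counts were 2 without CPT, 4 with CPT, 2 in CPT+GTA+5-Aza against Control and 6 in the mean priming effect. Over all 17123 genes, 2888 and 2767 were then called without and with CPT, against 2993 and 2904 with no block. The numbers of all genes called with the block in CPT+GTA+5-Aza against Control and the mean priming effect are not given here. Same-numbered libraries deviated with correlations from -0.524 to 0.564, so the numbers were not taken as pairs.

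The small fold changes under CPT changed sign. In CPT against Control, S100A10 (log2 fold change 0.0024) became -0.0058 with upper quartile scaling, -0.0043 with the block and -0.0070 with the length trend removed. Leaving out a library gave -0.40 to 0.44 for S100A2, -0.10 to 0.029 for S100A4, -0.10 to 0.24 for S100A6, -0.11 to 0.14 for S100A10, -0.082 to 0.013 for S100A11 and -0.34 to 0.077 for S100A13. In CPT+GTA+5-Aza against GTA+5-Aza, S100A16 (-0.013) became 0.044 with the block, and leaving out a library gave -0.23 to 0.44 for S100A16, -0.026 to 0.013 for S100A10, -0.011 to 0.067 for S100A11 and -0.0061 to 0.055 for S100A13.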
